A study of Mus musculus with 2 samples.

Results

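The 10 genes described here are the metallothioneins Mt1 and Mt2 and the antioxidant genes Sod1, Sod2, Prdx1, Txn1, Gpx1, Gpx4, Nqo1 and Hmox1. They were chosen by symbol, and all 10 were among the 48825 features listed for both libraries. The libraries hold single-cell RNA counts of parotid gland from wild type C3H mice, 1 library of control glands and 1 of glands taken 10 months after irradiation (IR) of the head and neck at 6 Gy a day for 5 days, 30 Gy in total. The mice were female, the irradiated ones were treated at 6 to 10 weeks of age, and glands were collected at about 1 year. Each library pooled 2 mice, so the effect of irradiation cannot be told apart from differences between animals or between libraries, and no test between the conditions was possible. Intervals below are exact 95% intervals that cover counting error only.

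Metallothioneins are small cysteine-rich proteins that bind zinc and copper, and their genes are switched on by metals, glucocorticoids and oxidants, through the metal-responsive factor MTF1 among others. The other genes remove reactive oxygen in steps. Superoxide dismutases turn superoxide into hydrogen peroxide, peroxiredoxins (with thioredoxin) and glutathione peroxidases reduce the peroxide, and Nqo1 and Hmox1 are classical targets of the oxidant-responsive factor NRF2.

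Of 5550 control and 7793 IR barcodes, 3378 and 5286 cells passed the filters, with medians of 2907.5 and 2461.5 unique molecular identifiers (UMIs, counted RNA molecules). The libraries shared 12 barcodes, 3 of them among the kept cells. The level of a gene in a class is its UMI total there per 1e+06 UMIs of the class, written CPM. The clusters were made without the 10 genes and without 49 other antioxidant genes, and were named from markers of each cell type. Compared with the study, class names were rebuilt here, no cluster met the marker rule for myoepithelial cells, and 3 control and 9 IR neutrophils were too few to describe. The Etv1+ cells fell into secretory-rich cells (182 control and 143 IR) and shallow secretory-poor cells (69 and 95). Genes for secreted proteins held 40.5% of the UMIs of control cells and 28.4% of those of IR cells, which moves the CPM of every other gene. Ratios were therefore also computed on totals without the secretory, mitochondrial, haemoglobin and a few other abundant genes, and these are given where they change a value. Levels are CPM of all UMIs unless stated, and the order of classes can differ on the other totals.

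The promoters of Mt1 and Mt2 are shown because their levels followed each other across the cell classes and both carry copies of the metal response element. RefSeq (GRCm38.p6) had promoter entries for 9 of the 10 genes, 12 in all, and none for Hmox1. Capitals mark the metal response element core, written TGCACNC or TGCGCNC, on either strand (on the minus strand its reverse complement is shown).
Mt1, chr8:94178839-94179081, plus strand: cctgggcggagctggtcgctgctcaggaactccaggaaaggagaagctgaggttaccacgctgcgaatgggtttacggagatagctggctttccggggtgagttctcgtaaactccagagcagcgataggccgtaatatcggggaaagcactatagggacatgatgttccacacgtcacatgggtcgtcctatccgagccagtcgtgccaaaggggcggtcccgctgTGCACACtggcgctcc
Mt1, chr8:94179089-94179118, plus strand: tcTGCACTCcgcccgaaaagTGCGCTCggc
Mt2, chr8:94172368-94172617, plus strand: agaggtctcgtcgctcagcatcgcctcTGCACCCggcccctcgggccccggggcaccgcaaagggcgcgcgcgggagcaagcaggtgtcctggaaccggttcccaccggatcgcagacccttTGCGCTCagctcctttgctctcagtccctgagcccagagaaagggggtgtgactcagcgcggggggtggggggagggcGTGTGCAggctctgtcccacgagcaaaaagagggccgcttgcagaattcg
Mt2, chr8:94172618-94172647, plus strand: ggtcGTGCGCAggcccaggggcgtgtgctg
The first Mt1 stretch ends where the longest annotated transcript begins, and the second lies in its first exon, upstream of transcripts that start at 94179211 and 94179241. Both Mt2 stretches lie before the annotated gene, which runs from 94172664 to 94173568. Mt1 runs from 94179082 to 94180327 on the same strand, 5513 bases from the end of Mt2.

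Over the 300 bases of each entry, the Mt1 promoter held 3 copies of the core and the Mt2 promoter 4, and the other 7 genes with an entry held 0. Of 32851 promoters, 25.7% had at least 1 copy, 1.97% at least 3 and 0.517% at least 4. The antioxidant response element core, TGACNNNGC, was found 1 time each in the promoters of Mt2, Prdx1 and Sod1 and in 12.4% of all promoters. These matches describe letters and not bound sites.

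In control glands Mt1 was highest in striated duct (SD) cells, at 2620 CPM from 208 UMIs. Stromal cells followed at 1982 CPM (374 UMIs), secretory-poor Etv1+ cells at 1430 (138) and macrophages at 831 (234). None of these 4 levels overlapped the next in its interval. Secretory-rich Etv1+ cells had 457 CPM, dendritic cells 440, acinar cells 286 and intercalated duct (ID) cells 249. Without the abundant genes the order changed. SD cells then had 3957 CPM, secretory-poor Etv1+ cells 2536 (2130 to 2996) and stromal cells 2101 (1893 to 2325). Secretory-poor Etv1+ and stromal cells thus overlapped. Acinar cells had 1038 (968 to 1111) on these totals, macrophages 948 (830 to 1077), ID cells 934 and dendritic cells 467. Lymphocyte classes lay between 35.3 CPM in NK cells and 83.2 in FoxP3+ T-cells. Over 17 classes the median was 83.2 CPM in control and 89.9 in IR.

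Mt2 had the same leading classes at lower counts. It stood at 567 CPM (45 UMIs) in SD cells and 509 (96) in stromal cells, which overlapped each other, and secretory-poor Etv1+ cells were next at 176 (17). Dendritic cells had 120 CPM and acinar cells 22.1. Over 36 pairs of class and library, neutrophils included, the levels of Mt1 and Mt2 had a Pearson r of 0.858 on the log2(CPM + 10) scale, the highest of any pair among the 10 genes, given as a description since classes of a library share its depth and free RNA. Mt1 held 89.4% of the UMIs of the pair in control and 88.7% in IR. Its share was 92.8% (90.9 to 94.4) in control acinar cells and 79.6% (75.6 to 83.1) in control stromal cells.

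**Figure D1:**
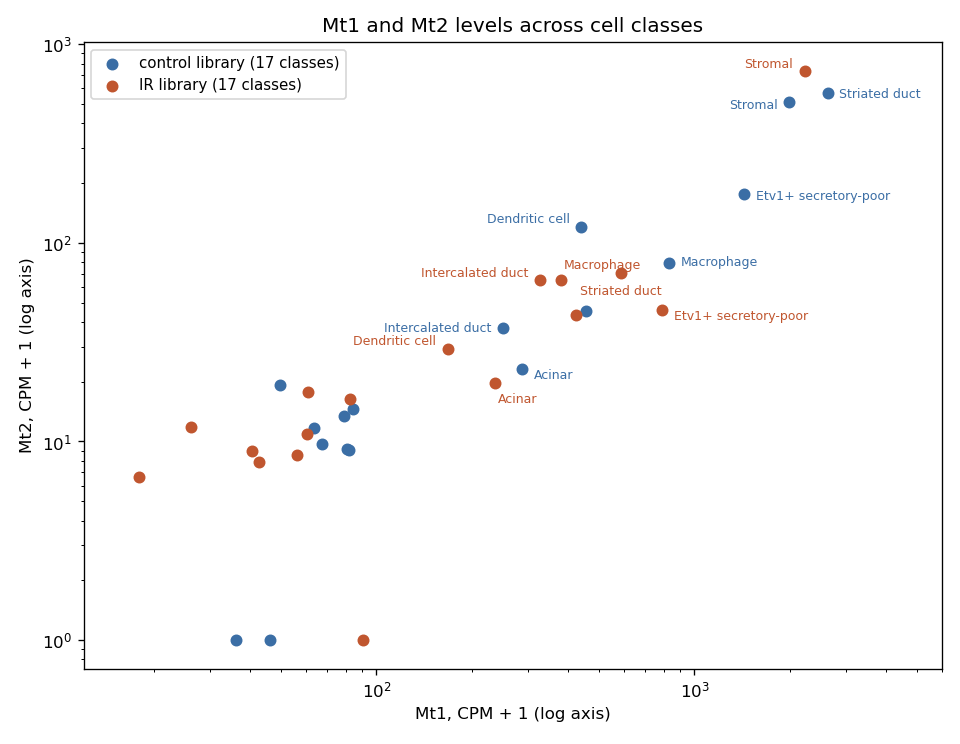
Mt2 level against Mt1 level (both CPM + 1, log axes) in each of 17 cell classes of the control and IR libraries. Stromal cells are at the upper right in both libraries, while SD cells move from 2620 to 585 CPM of Mt1 and from 567 to 69.6 CPM of Mt2.

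Within a class, a minority of cells carried much of the Mt1 signal. The tenth of control cells with the most Mt1 held 62.0% of its UMIs in acinar cells, 45.9% in secretory-rich Etv1+ cells, 69.2% in macrophages and 57.2% in stromal cells. In control acinar cells 89.2% of the cells with Mt2 also had Mt1, against 55.9% of all acinar cells, so 33 cells had both where 20.7 would if the genes were independent. Deeper cells have more of both genes, and the part of depth in this was not tested.

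In the IR library Mt1 was lower than in control in 10 of 12 classes that had at least 50 Mt1 UMIs, and past 1.5-fold lower in 7. It was past 1.5-fold higher in 0. In SD cells it went from 2620 to 585 CPM (208 and 84 UMIs), a ratio of 0.223 (0.171 to 0.289), or 0.325 with the abundant genes left out. The SD cells of the 2 libraries also differed in depth, with median UMIs of 723.5 and 2003.5, and in their secretory share, 29.3% and 51.5%. Of all genes with 50 UMIs in SD cells, 57.5% were past 1.5-fold lower in IR, and the median ratio was 0.589 (0.826 with the abundant genes left out). Cells with at least 1000 UMIs were thinned to that depth and shallower ones left out, which kept 20 of 90 control but 58 of 78 IR SD cells, so the shares describe only the deepest control SD cells. Of these, 70% in control and 32.8% in IR had an Mt1 UMI, against 8.14% of 823 and 5.30% of 812 B-cells, whose median depths were 2538.5 and 2179 UMIs.

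In macrophages Mt1 went from 831 CPM (234 UMIs) to 379 (101), a ratio of 0.456 (0.358 to 0.579), where 15.6% of all genes were past 1.5-fold lower. Different macrophage clusters held most cells in the 2 libraries (B0 had 69 control and 34 IR cells, B1 36 and 36, B2 11 and 35, B3 24 and 13), and within B1 the ratio was 0.412 (0.307 to 0.547). Dendritic cells went from 440 to 167 CPM (162 and 100 UMIs), a ratio of 0.378 (0.292 to 0.489), beside 6.46% of genes that far lower. Within dendritic cluster 20 (26 control and 47 IR cells) the ratio was 0.312 (0.233 to 0.415), and in clusters 21 and B4 the UMIs of Mt1 were 5 and 15, and 17 and 7. Macrophages and dendritic cells thus had less Mt1 per UMI in the IR library, also within their largest Mt1 cluster.

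Early response genes that rise when tissue is dissociated were counted beside these ratios. Of 20 such genes, 0 were past 1.5-fold higher and 4 lower in IR macrophages, and 3 higher and 7 lower in dendritic cells. Their summed level went from 26168 to 20352 CPM in macrophages and from 14709 to 11834 in dendritic cells. The other classes with Mt1 past 1.5-fold lower were mixed. CD8+ T-cells had 9 of 20 higher and 5 lower, naive-like T-cells 7 of 20 and 5, and FoxP3+ T-cells 4 of 19 and 6. Secretory-poor Etv1+ cells had 0 of 18 higher and 5 lower, and SD cells 1 of 15 and 2. The part of these early response genes in the Mt1 ratios was not tested.

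Secretory-poor Etv1+ cells had an Mt1 ratio of 0.551 (0.424 to 0.716; 14.4% of genes past 1.5-fold lower). In T-cells the ratio was 0.401 (0.256 to 0.619) in CD8+ cells, 0.628 (0.503 to 0.785) in naive-like cells and 0.664 (0.456 to 0.973) in FoxP3+ cells, where 4.53%, 2.58% and 4.41% of genes were that far lower. The naive-like cells were those of cluster 0 (581 control and 991 IR) and cluster 2 (125 and 858), and the ratios within these were 0.698 (0.532 to 0.915) and 0.513 (0.334 to 0.809). B-cells, at 0.748 (0.592 to 0.943), did not reach 1.5-fold. These lymphocyte levels were low and part of them can be free RNA from gland cells. If the secretory UMIs found in a class had brought Mt1 along as in acinar cells, they would account for 33.7% of its Mt1 UMIs in control and 37.0% in IR B-cells, for 24.5% and 56.6% in CD8+ T-cells, but for 4.6% and 7.7% in macrophages and at most 1.1% in stromal cells.

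Mt1 was not past 1.5-fold lower in every class. Stromal cells had 1982 CPM (374 UMIs) in control and 2225 (194) in IR, a ratio of 1.12 (0.939 to 1.34), and ID cells 249 (76) and 326 (209), a ratio of 1.306 (0.9999 to 1.721) that is 1.06 with the abundant genes left out. Acinar cells were lower in IR, at 0.820 (0.737 to 0.911), and so were secretory-rich Etv1+ cells, at 0.926 (0.871 to 0.984), neither past 1.5-fold. The median ratios over all genes in these classes were 1.203 and 1.15. Without the abundant genes acinar Mt1 went from 1038 to 760 CPM, and the secretory-rich ratio was 0.819 (0.770 to 0.870).

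Mt2 was past 1.5-fold lower in 2 of 7 classes with enough UMIs, SD cells at 0.123 (0.0552 to 0.247) and dendritic cells at 0.237 (0.127 to 0.423). In dendritic cells it went from 120 CPM (44 UMIs) to 28.3 (17), and 1 control cell held 13 of the 44. It was past 1.5-fold higher in ID cells, at 1.77, with an interval of 0.894 to 3.82 that includes 1. That ratio was 1.43 without the abundant genes and 0.615 with equal weight for cells. Stromal cells had a ratio of 1.443 (1.035 to 2.0).

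**Figure D2:**
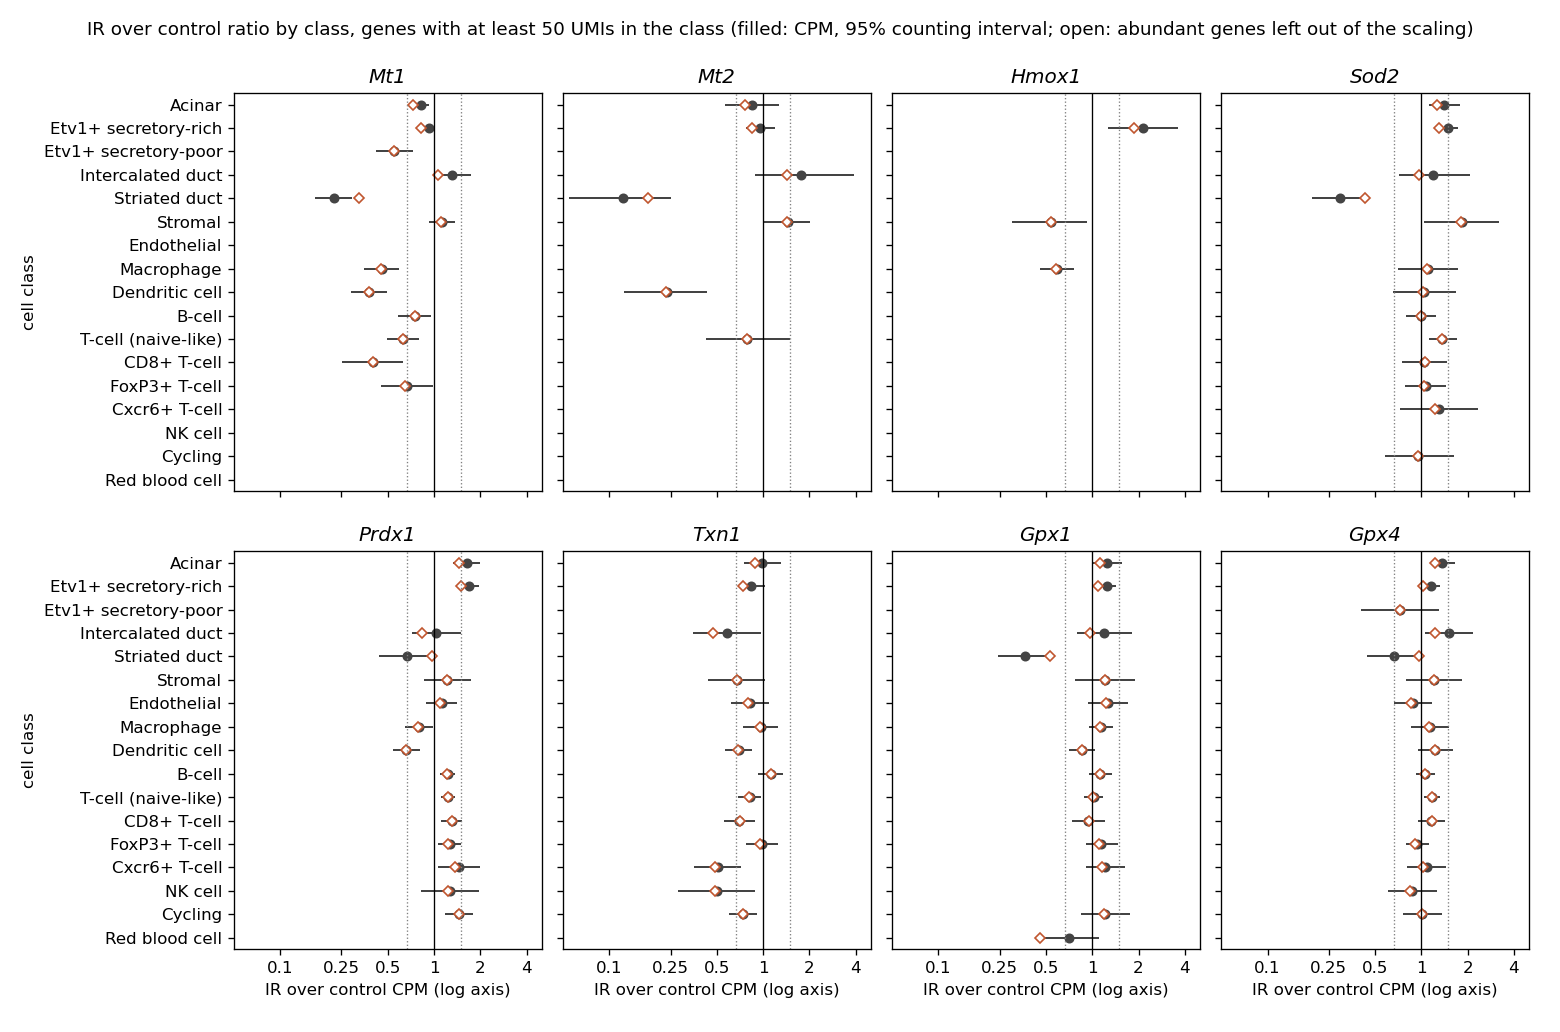
Ratio of IR to control CPM (log axis) by class for 8 of the 10 genes with at least 50 UMIs, with 95% counting intervals. Open symbols leave out the abundant genes, and dotted lines mark 1.5-fold. Mt1 lies past the lower line in 7 of 12 classes and Prdx1 past the upper one in 2 of 15.

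Hmox1, which encodes the enzyme that breaks haem down to biliverdin, iron and carbon monoxide, had the highest ratio of 1 class to all other control cells among the genes with at least 25 UMIs in that class. In control it stood at 721 CPM (203 UMIs) in macrophages and 382 (72) in stromal cells, each separate from the next class in its interval. Endothelial cells followed at 122 CPM (39 UMIs), and the median over the classes was 6.10. Its macrophage level was 58.9 times (48.5 to 71.4) that of all other control cells, and its stromal level 19.96 times (15.3 to 25.8), but 1 control stromal cell held 42 of the 72 stromal UMIs.

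In IR macrophages Hmox1 stood at 424 CPM (113 UMIs), a ratio of 0.588 (0.463 to 0.744), and 0.605 (0.469 to 0.777) within cluster B1. Weighting each cell equally in place of summing UMIs gave 0.858. In stromal cells the ratio was 0.541 (0.304 to 0.917), but 1.09 without the top cell of each library. Dendritic cells had 14 and 3 Hmox1 UMIs and endothelial cells 39 and 8, under the 50 UMIs asked for. Secretory-rich Etv1+ cells had 4.57 CPM (30 UMIs) and 9.72 (37), a ratio of 2.13 (1.28 to 3.57). At such low levels free RNA can play a part, which was not tested. Secretory UMIs cannot measure it here, since these cells are themselves rich in secretory RNA.

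Nqo1, which encodes a quinone reductase, was close to absent from the counts. It had 6 UMIs in the control library, 5 of them in endothelial cells and 1 in a secretory-rich Etv1+ cell. In the IR library it had 2 UMIs, 1 in a cycling and 1 in a secretory-rich Etv1+ cell. It reached the filter in no class, and these counts cannot show a difference between the libraries.

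**Figure D3:**
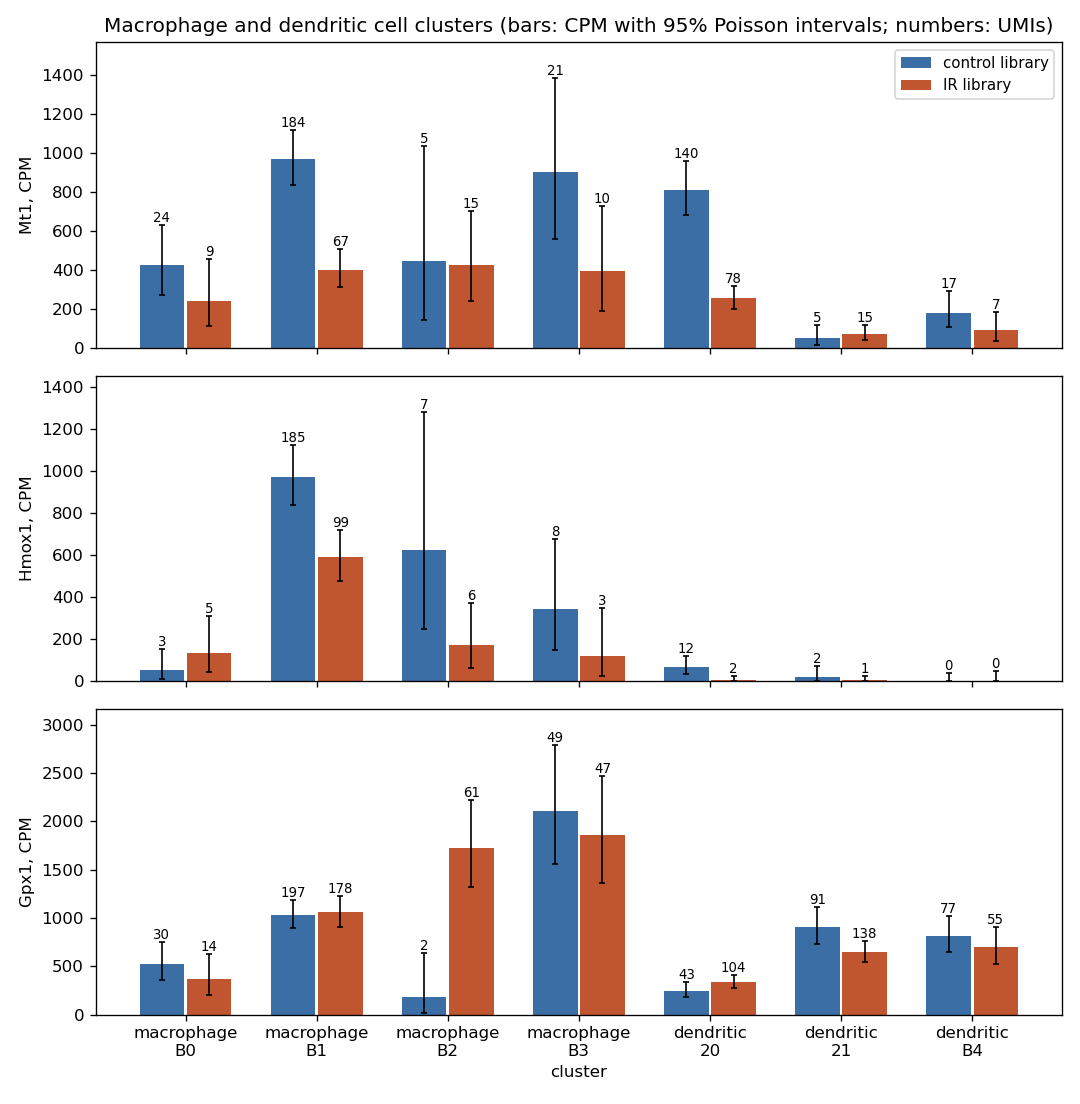
Levels (CPM, bars, with 95% Poisson intervals and UMI numbers above) of Mt1, Hmox1 and Gpx1 in macrophage clusters B0 to B3 and dendritic clusters 20, 21 and B4, control and IR side by side. Mt1 in B1 is 967 CPM in control and 398 in IR, and Hmox1 973 and 588.

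Sod2, the mitochondrial superoxide dismutase, had 1 class that stood apart. Control SD cells had 995 CPM (79 UMIs), 13.95 times (10.98 to 17.5) the level of other cells, and the next class, stromal cells, had 170 (32). Without the abundant genes SD cells had 1503 CPM (1190 to 1873) and the next class was ID cells, at 283 (179 to 424). SD cells of the gland are rich in mitochondria. In IR they had 292 CPM (42 UMIs), a ratio of 0.294 (0.197 to 0.433), or 0.428 without the abundant genes. Of the SD cells deep enough to thin to 1000 UMIs, 12 of 20 control (60%) and 16 of 58 IR cells (27.6%) had a Sod2 UMI.

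In 10 of the 13 classes tested for Sod2 the ratio was above 1, and its median over the classes was 1.105. The median ratio over all genes was also above 1 in most of these classes, so the count is not read as a trait of Sod2. It was past 1.5-fold higher in stromal cells alone, at 1.83 (1.05 to 3.15) from 32 and 27 UMIs. Acinar cells had 1.41 (1.13 to 1.75), secretory-rich Etv1+ cells 1.48 (1.28 to 1.72) and naive-like T-cells 1.37 (1.13 to 1.67), while the median ratios over all genes in these classes were 1.203, 1.15 and 1.14. Sod1, the copper and zinc enzyme of the cytosol, was highest in endothelial cells, at 190 CPM (61 UMIs) in control and 168 (33) in IR, and lowest among cells with nuclei in acinar cells, at 5.53 and 6.11. Its control endothelial level was 7.05 times (5.32 to 9.21) that of other cells. In 7 classes with enough UMIs its ratios ran from 0.720 to 1.17, past 1.5-fold in 0.

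Prdx1, a peroxiredoxin that reduces hydrogen peroxide with electrons from thioredoxin, was measured well in most classes. In control it was highest in macrophages, at 923 CPM (260 UMIs), and in cycling cells, at 763 (125), which overlapped. Acinar and secretory-rich Etv1+ cells were lowest, at 65.6 and 66.9. Without the abundant genes acinar cells had 238 CPM (206 to 275) and secretory-poor Etv1+ cells 129 (51.7 to 265). A single macrophage of 23488 UMIs, in a class with a median of 829.5, held 138 of the 260 macrophage UMIs, 64 of the 146 of Txn1 and 82 of the 278 of Gpx1, so these 3 macrophage levels rest in part on 1 cell.

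Prdx1 was higher in the IR library in 12 of 15 classes, and past 1.5-fold in 2. Its median ratio over the classes was 1.24, and the median over all genes was also above 1 in most of them. In acinar cells Prdx1 went from 65.6 CPM (190 UMIs) to 107.0 (280), a ratio of 1.63 (1.35 to 1.97), where 18.7% of all genes were past 1.5-fold higher. In secretory-rich Etv1+ cells it went from 66.9 (439) to 114 (432), a ratio of 1.70 (1.48 to 1.94), beside 14.9% of genes that far higher. With the abundant genes left out the ratios were 1.46 (1.21 to 1.76) and 1.501, and the median over all genes was 1.075 and 1.02. Lymphocytes together had 1.24 (1.18 to 1.31), against a median of 1.12 over all genes.

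In dendritic cells the Prdx1 ratio was 0.661 (0.547 to 0.799), and this rested on 1 control cell. That cell of 6820 UMIs held 114 of the 216 control UMIs of Prdx1, and without the top cell of each library the ratio was 1.35 (1.06 to 1.72). Within clusters 21 and B4 it was 1.70 (1.13 to 2.64) and 1.66 (1.001 to 2.77). In macrophages the ratio was 0.797 (0.659 to 0.963), and 1.499 (1.18 to 1.90) without the top cells. SD cells had 0.666 (0.448 to 0.993), or 0.969 without the abundant genes.

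Txn1, the cytosolic thioredoxin, was highest in cycling cells in both libraries, at 909 CPM (149 UMIs) in control and 674 (404) in IR, separate from the next class in each. In control 1 cycling cell held 42.3% of those UMIs. Its ratio was below 1 in 13 of 14 classes and past 1.5-fold lower in 3. These were Cxcr6+ T-cells at 0.508 (0.3599 to 0.709), NK cells at 0.499 (0.284 to 0.870) and ID cells at 0.579 (0.353 to 0.954), where 8.73%, 8% and 16.4% of genes were that far lower. NK cells had 32 Txn1 UMIs in control and 25 in IR, and ID cells 32 and 39. With equal weight for cells the ID levels were 244 and 167 CPM, inside 1.5-fold. In Cxcr6+ T-cells the level went from 420 CPM (111 UMIs) to 214 (54).

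Gpx1, the main cytosolic glutathione peroxidase, was highest in macrophages in both libraries on totals of all UMIs. Control macrophages had 987 CPM (278 UMIs) and SD cells 957 (76), which overlapped, and IR macrophages had 1126 (300), separate from every other class. Without the abundant genes red blood cells were highest, at 2844 CPM (2258 to 3534) in control and 1299 (883 to 1844) in IR. Macrophages then had 1126 (998 to 1267) in control and 1267 (1128 to 1419) in IR, and control SD cells 1446. Red blood cells and macrophages overlapped in IR on these totals. Red blood cells, in which Gpx1 is a known main peroxidase, had 654 CPM (81 UMIs) and 465 (31), a ratio of 0.710 (0.454 to 1.09), or 0.457 without the abundant genes, and 1 control cell held 29 of the 81. The control red blood cell level was 4.41 times that of other cells, and Gpx1 alone of the 10 genes had 25 UMIs in that class, where 12.9% of genes were above 2-fold. Gpx1 was past 1.5-fold lower in IR in SD cells alone, at 0.364 (0.249 to 0.527), and in the other 14 tested classes it ran up to 1.27.

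Gpx4, which reduces lipid peroxides in membranes, was the most even of the genes across control classes. Its class levels ran from 86.0 to 642 CPM in control and from 89.9 to 470 in IR, and the leading classes overlapped. It was past 1.5-fold higher in ID cells, at 1.51 (1.075 to 2.15), or 1.22 with the abundant genes left out, and past 1.5-fold lower in SD cells, at 0.661 (0.448 to 0.979), or 0.962. Both ratios thus fell inside 1.5-fold under the other scaling.

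**Figure D4:**
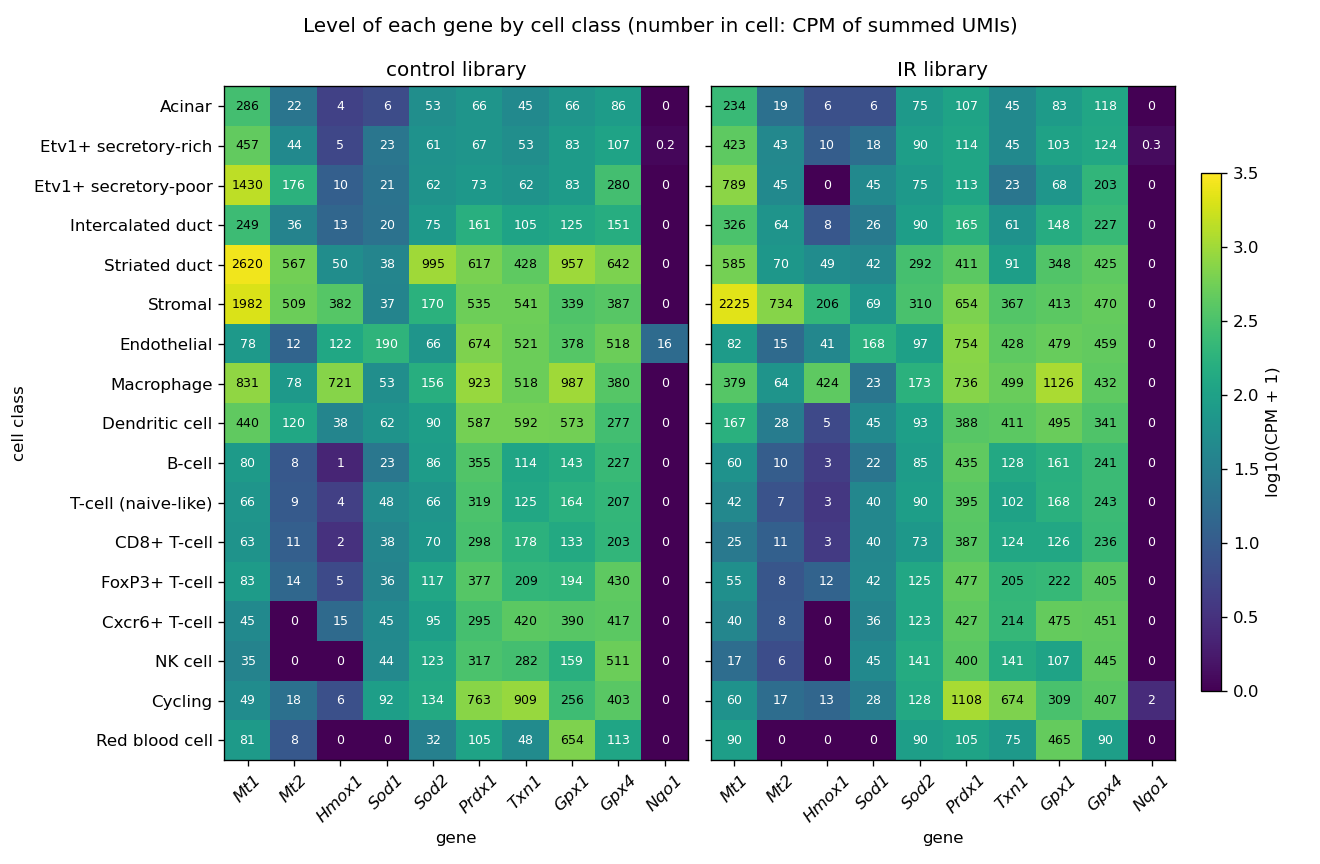
Levels of the 10 genes in 17 cell classes of the control and IR libraries (number in each cell, CPM; colour, log10 of CPM + 1). SD and stromal cells hold the highest Mt1 CPM in control (2620 and 1982), macrophages the highest Hmox1 (721), and acinar cells low CPM of most genes. Without the abundant genes, control acinar cells have 1038 CPM of Mt1, 312 of Gpx4 and 238 of Prdx1. Control B-cells have 88.6, 253 and 395 on these totals.

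Read by class, 9 of the 10 genes were at least 2 times above all other control cells in some named class from at least 25 UMIs, and Nqo1 had too few UMIs. Of all genes with 25 UMIs in a class, 83.5% were above in some class. Of the members with enough UMIs in a class, SD cells had 7 of 7 above (58.2% of all such genes), stromal cells 8 of 8 (63.2%), macrophages 7 of 7 (55.5%), endothelial cells 6 of 7 (70.3%) and dendritic cells 4 of 7 (55.2%). On totals without the abundant genes, stromal cells had 4 (45.3%), macrophages 4 (38.6%), endothelial cells 4 (48.1%) and dendritic cells 2 (29.6%). SD cells still had 7 there, but the share of all genes was not computed for them on these totals. That count is therefore not read as a trait of the members. Acinar cells had 0 of 7 (0.927%), secretory-rich Etv1+ cells 0 of 9 (8.58%) and ID cells 0 of 5 (5.88%), and B-cells 0 of 7 where 61.3% of genes were. Secretory-poor Etv1+ cells had 1 of 2, Mt1 (42.6%), Cxcr6+ T-cells 3 of 5 (57.3%), cycling cells 3 of 4 (75.9%), NK cells 2 of 3 (65.5%), FoxP3+ T-cells 1 of 6 (62.9%), and naive-like and CD8+ T-cells 0 of 7 each (49.5% and 49.9%). Without the abundant genes secretory-rich Etv1+ cells had 2, Mt1 at 3.65 and Mt2 at 2.55 (21.5%), Cxcr6+ T-cells 1 (29.2%), cycling cells 2 (45.9%), and NK cells and FoxP3+ T-cells 0 (28.2% and 20.6%).

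Between the libraries, SD cells had 6 of 6 tested genes past 1.5-fold, all lower, in a class where 66.3% of all genes were past it, 57.5% lower and 8.78% higher. On totals without the abundant genes 4 were, where 53.5% of all genes were past it. Dendritic cells had 3 of 8 lower (22.8% of genes past it in either direction, with 6.46% lower). Macrophages had 2 of 7 lower and 0 higher (24.3%, with 15.6% lower and 8.67% higher), and stromal cells 1 higher and 1 lower of 8 (40.9%). ID cells had 2 higher and 1 lower of 7 (32.9%). Acinar cells had 1 of 7 higher and 0 lower (21.5%, with 18.7% higher and 2.81% lower), and all Etv1+ cells 2 of 9 higher (20.4%, with 17.8% higher). In ID, acinar and all Etv1+ cells these became 0, 0 and 1 higher without the abundant genes (40.5%, 13.9% and 14.1% past it in either direction). Secretory-rich Etv1+ cells had 2 of 9 higher and 0 lower (18.4%, with 14.9% higher and 3.45% lower). Without the abundant genes 2 were still higher there (14.3% past it in either direction). Secretory-poor Etv1+ cells had 1 of 2 lower, where 14.4% of genes were lower and 25.1% past it in either direction (21.7% without the abundant genes). CD8+ T-cells had 1 of 7 lower, naive-like 1 of 8, FoxP3+ 1 of 7, Cxcr6+ 1 of 5 and NK cells 1 of 3. The shares of all genes lower were 4.53%, 2.58%, 4.41%, 8.73% and 8% in that order. Past it in either direction they were 18.3%, 18%, 18.2%, 23.3% and 23.4%. Endothelial cells had 0 of 5 in either direction (7.26% higher and 9.44% lower). B-cells had 0 of 7 (13.8%), cycling cells 0 of 5 (25.6%) and red blood cells 0 of 1 (57%). The 1 gene tested in red blood cells, Gpx1, was past 1.5-fold lower without the abundant genes, at 0.457 (34.6% in either direction). Summed over all kept cells, Prdx1 was past 1.5-fold higher (1.53) and Mt1 (0.609), Mt2 (0.654) and Hmox1 (0.632) lower, 4 of 9 where 35.8% of genes were past it and the median ratio was 1.33. Without the abundant genes Prdx1 was at 1.26, inside 1.5-fold, and Mt1 (0.502), Mt2 (0.539) and Hmox1 (0.521) were past it lower. On these totals 21.5% of genes were past it in either direction. In a sum over all cells, fewer cells of a type and less RNA per cell cannot be told apart.

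The 49 other antioxidant genes cover glutathione (16), thioredoxin and peroxiredoxins (13), superoxide dismutase and catalase (3), haem and iron (6), regulators of NRF2 (6) and metals (5). In control, 33 of the 41 with enough UMIs (80.5%) were at least 2 times above other cells in some class, against 83.5% of all genes. Stromal cells led in Gpx3, a secreted glutathione peroxidase (68 UMIs against 3 in all other cells), and in Gpx8 and Mgst1. Macrophages led in Selenop, which carries selenium (35.0 times other cells), in Nfe2l2, the gene of NRF2 (17.7), and in Ftl1, ferritin light chain (11.5). Dendritic cells led in the cystine transporter Slc7a11 (175), and SD cells in Prdx5, a peroxiredoxin found in mitochondria (22.9). Acinar cells had 0 of 16 above (0.927% of all genes) and B-cells 9 of 31 (61.3%).

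Txnip, which encodes an inhibitor of thioredoxin, was past 1.5-fold higher in several IR lymphocyte classes, cycling cells and an unnamed cluster, and past it lower in several gland classes and stromal cells. Its ratio in lymphocytes together was 1.998 (1.85 to 2.16) from 856 and 2611 UMIs, and 2.04 (1.79 to 2.34) in B-cells, 1.93 in naive-like, 2.20 in CD8+, 1.998 in FoxP3+ and 2.01 in Cxcr6+ T-cells. It was 2.79 (1.12 to 8.95) in cycling cells, from 5 and 51 UMIs, and 2.25 (1.34 to 4.02) in unnamed cluster 7, from 17 and 98. It was 0.654 (0.537 to 0.792) in secretory-rich Etv1+ cells, 0.595 in secretory-poor ones, 0.461 in ID cells and 0.329 (0.173 to 0.581) in stromal cells. With equal weight for cells it was 0.687 in secretory-rich Etv1+ cells and 0.942 in ID cells, inside 1.5-fold. It stayed past it in secretory-poor ones (0.539) and stromal cells (0.358). The difference between these classes was not tested.

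Of the pathway genes with 50 UMIs, 6 of 18 were past 1.5-fold higher and 1 lower in acinar cells (18.7% and 2.81% of all genes), the glutathione transferase Mgst3 at 2.36 (1.40 to 4.12), the NRF2 regulator Sqstm1 at 1.92 and Selenow at 1.69 among them, with the peroxiredoxin Prdx4 lower at 0.637. In all Etv1+ cells 6 of 31 were higher and 0 lower (17.8% and 2.53%), with Gstp1 at 2.21, Sqstm1 at 2.16 and glutathione reductase Gsr at 1.77. Without the abundant genes 3 were past 1.5-fold higher in each, where 13.9% and 14.1% of all genes were past it in either direction. In macrophages 4 of 16 were lower and 1 higher (15.6% and 8.67%), with Selenop at 0.326 (0.271 to 0.390; 519 and 160 UMIs), biliverdin reductase Blvrb at 0.549 and Prdx6 at 1.64. In dendritic cells 3 of 19 were lower and 1 higher (6.46% and 16.3%), with Bach1, a repressor of Hmox1, at 0.352, Blvrb at 0.472 and Sqstm1 at 0.486. SD cells had 3 of 4 lower where 57.5% of all genes were, Prdx5 at 0.222, ferritin heavy chain Fth1 at 0.373 and Prdx2 at 0.438. Stromal cells had 3 of 12 lower (24.2%), with Gpx3 at 0.255 (68 and 8 UMIs) and Gstm1 at 0.637. B-cells had 5 of 32 higher and 1 lower (9.87% and 3.92%), with the copper chaperone of Sod1, Ccs, at 1.996, Txnrd1 at 1.76 and Gclc, of glutathione synthesis, at 0.644. Naive-like T-cells had 5 of 34 higher and 0 lower (15.5% and 2.58%), with Nfe2l2 at 2.02 and Selenop at 1.76. ID cells had 2 of 10 higher and 2 lower (16.4% of all genes in each direction), with Glrx5 at 2.32 and Prdx2 at 0.587. With equal weight for cells some of these ratios fell inside 1.5-fold. Blvrb in macrophages was then 1.01, Gstm1 in stromal cells 0.960, Gstp1 in all Etv1+ cells 1.31 and Prdx2 in SD cells 0.691. The other ratios named in this paragraph stayed past it.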

How the data were processed

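Single-cell libraries were made from 1 control and 1 IR pool of 2 mice each. The deposited values are raw UMI counts per gene and barcode, which the authors made by aligning to mm10. The submitters' processing notes name Cell Ranger 3.0.1 and Seurat 3. Kept barcodes had 200 genes or more and no more than 5% mitochondrial UMIs, and 912 control and 649 IR barcodes were left out for too few genes and 1260 and 1858 for mitochondrial RNA. Anchor integration and clustering used Seurat 5.3.0 (R 4.3.3) on 2000 variable genes, of which 1978 were used after the 10 genes and 49 pathway genes were left out, with 30 components at resolution 0.8. Mixed clusters were clustered again with 20 components. A cluster was named where at least 3 markers had 2 times the CPM of other cells from at least 5 UMIs, and unclear clusters stayed unnamed. Sums, ratios and intervals (exact Poisson, conditional binomial and Clopper-Pearson) used numpy 2.4.6, scipy 1.17.1 and pandas 2.3.3, TMM factors edgeR 4.0.16, and figures matplotlib 3.10.9. Scrublet (scanpy 1.11.5) called 32 control (0.947%) and 1 IR cell (0.0189%) doublets, so it did not work for the IR library, and no doublets were removed.

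With 1 library per condition no test, p-value or standard error was computed. A ratio was read against 1.5-fold where a gene had at least 50 UMIs in a class, and a class against other cells at 2-fold from 25 UMIs. The rules were run on simulated counts with known changes. These counts were drawn under the counting model that the intervals assume, without differences between cells or libraries. The run therefore cannot tell how the rules behave where 1 cell holds many UMIs or where libraries differ. The 10 genes and the lists were chosen with earlier results of these data known. All 10 genes were named in the text. Pathway genes were drawn from up to 3 with the highest and 3 with the lowest ratio past 1.5-fold whose interval left out 1. They were also drawn from the 3 most above other cells in a class. Not every gene or class that met this rule was named. Left out were, among others, Fth1 at 1.76 (1.59 to 1.96) and Selenow at 0.538 in NK cells, and Gstp1 at 2.08 in FoxP3+ T-cells. Txnip was named wherever it passed that rule, also in an unnamed cluster. Alternatives were scaling without abundant genes, TMM scaling, equal weight for cells, a 10% mitochondrial limit, at least 500 genes, resolution 0.3, no integration, clustering with the genes kept, no high doublet scores, gene minimums of 20 and 1 UMI and a 2-fold rule. Leaving out the top cell and values within clusters were chosen after seeing the data.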

Additional observations from a re-analysis of the deposited data

Results flagged for a closer look

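For 4 of the genes the ratio of IR to control was past 1.5-fold higher in one class and past it lower in another, with intervals that leave out 1. None of these differences between classes was tested. Gpx4 was at 1.51 in ID cells and 0.661 in SD cells, and both fell inside 1.5-fold, at 1.22 and 0.962, with the abundant genes left out. Hmox1 was at 2.13 in secretory-rich Etv1+ cells and 0.541 in stromal cells, where 1 control cell held 42 of 72 UMIs. Prdx1 was at 1.70 in secretory-rich Etv1+ cells and 0.661 in dendritic cells, where 1 control cell held 114 of 216 UMIs. Sod2 was at 1.83 in stromal cells, from 59 UMIs in both libraries, and at 0.294 in SD cells.

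Barcodes left out by the filters also differed between the libraries, on a scale without mitochondrial UMIs. Only ratios past 1.5-fold higher in IR with an interval above 1 were listed for them. A gene that was lower could not appear, and no share of all genes is given for these barcodes. Among barcodes under 200 genes Gpx4 had a ratio of 2.21 (1.56 to 3.13), Prdx1 2.57 (1.69 to 3.93) and Sod2 1.87 (1.04 to 3.34), and with the abundant genes left out these were 1.41, 1.64 and 1.19. Among barcodes over 5% mitochondrial UMIs Prdx1 had 1.83 (1.59 to 2.11), or 1.56 with the abundant genes left out.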

How the results depend on the processing

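No paired analysis was possible because each condition has 1 library and the labels carry no replicate numbers, and no replicate could be left out for the same reason. Of 94 alternative values of 8 counts, 74 stayed within 1.5 times of the reported count. The counts between the libraries add genes higher and genes lower. Such a count can therefore stay the same while the genes or the direction behind it change. The members past 1.5-fold in acinar cells (1) were 0 without abundant genes and with a 2-fold rule, and 2 with at least 20 UMIs or at least 1 UMI. In Etv1+ cells (2) they were 1 without abundant genes, with TMM scaling and with a 2-fold rule. In B-cells (0) they were 1 with equal weight for cells and with at least 1 UMI, in naive-like T-cells (1) 0 with equal weight for cells and with a 2-fold rule, and in all kept cells (4) 0 with a 2-fold rule. The pathway genes past 1.5-fold in acinar cells (7) were 4 without abundant genes, 3 with TMM scaling, 12 with at least 20 UMIs, 18 with at least 1 UMI and 1 with a 2-fold rule. Those in B-cells (6) were 12 with at least 20 UMIs, 15 with at least 1 UMI and 1 with a 2-fold rule. The 9 genes above other cells in control were 9 in 9 of 10 alternatives and 10 with at least 1 UMI, and a 2-fold rule was not run for that count, since it is its own rule.

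Of 29 ratios of single genes past 1.5-fold, with 249 values under the alternatives set at the start and 36 under those chosen after seeing the data, 240 lay within the counting interval of the reported ratio, 37 outside it in the same direction, and 8 changed direction. With equal weight for cells Mt2 in ID cells was 0.615, and with TMM scaling Prdx1 and Gpx4 in SD cells were 1.10 and 1.09. Without the top cell Hmox1 in stromal cells was 1.09 and Prdx1 in dendritic cells 1.35, and the latter was also 1.34 without the highest 6% of doublet scores and 1.70 and 1.66 within clusters 21 and B4. The cause of these changes was not tested for any of the genes. Nqo1 had too few UMIs in every class to compare the libraries. Small UMI totals, from few or shallow cells, limit the secretory-poor Etv1+, stromal and red blood cell classes to their most abundant genes. Some alternative clusterings held no cells of a class, and its ratios then have no value among the 249. Secretory-poor Etv1+ cells formed a class only without integration. Stromal cells formed none at resolution 0.3, with the 10% mitochondrial limit or without integration, and Cxcr6+ T-cells none at resolution 0.3.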

Other observations

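Genes outside the set followed some of its members across 36 pairs of named class and library, neutrophils included. The 3 with the highest Pearson r (log2(CPM + 10), a description over class levels that share library and depth) were Nupr1 (0.825), Slc1a3 (0.810) and Sox9 (0.797) for Mt1, and Nfix (0.896), B9d1 (0.862) and Rab34 (0.848) for Mt2. For Sod2 they were Prdx5 (0.853), Aldoa (0.783) and Nudt4 (0.771), and for Hmox1 Pmp22 (0.827), Daglb (0.825) and Itgb5 (0.823). Nqo1, with 8 UMIs in all, gave Inhbb (0.781), Cldn5 (0.762) and Car4 (0.749), from which nothing can be read. Between members, Txn1 had an r of 0.766 with Gpx4 and 0.733 with Gpx1, and Sod1 of 0.707 with Prdx1.

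Clusters that met no single cell type's markers also carried these genes. Cluster 7, with 107 control and 289 IR cells, had Mt1 at 258 CPM (56 UMIs) and 110 (61), a ratio of 0.426 (0.291 to 0.623), and Gpx4 at 124 (27) and 255 (142), a ratio of 2.05 (1.35 to 3.23). The deep cells of group A4, with markers of several gland cell types (31 control and 30 IR cells), had Mt1 at 586 CPM (599 UMIs) and 540 (440), and Txn1 at 111 (113) and 42.9 (35), a ratio of 0.388 (0.258 to 0.572). Group A6 held 15 and 17 shallow cells with at most 11 UMIs of any of the 10 genes in a library.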
